A study of Mus musculus with 6 samples.

Results

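Apold1, Akap12, Ctla2a and Adgrf5 are 4 genes named as vascular, taken as the rows of the deposited count table with those symbols, 4 of 54532 genes in all. Libraries of whole cord do not show which cells their RNA came from. They were chosen by their scaled read counts in these same libraries, as vascular genes with a lower level in trained than in untrained spinal cord, so their differences between the groups are given as a description, with no test. All 4 passed the filter on low counts, with 16909 genes tested. The trained group was cord tissue of injured C57BL/6J animals that underwent rotarod training, in which a mouse walks on a turning rod, and the untrained group was cord of injured C57BL/6J animals without that training. Each group had 3 libraries of total RNA, labelled day 28 after training, and every animal in the comparison was injured, so no uninjured cord enters it. The labels give neither the age of the mice, the level of the injury, nor whether each library came from 1 mouse, and the spread between libraries may therefore be technical.

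Vessels of the cord are lined by endothelial cells, which are sealed by tight junctions and wrapped by pericytes and smooth muscle cells, together called mural cells. Apold1, apolipoprotein L domain containing 1, is an early-response gene of endothelial cells, transcribed soon after a stimulus such as ischaemia in rodents. Akap12, also called gravin, anchors protein kinases A and C at the cell membrane. Ctla2a is a rodent inhibitor of cysteine proteases that resembles the propeptide of cathepsin L. Adgrf5, once called Gpr116, is an adhesion G protein-coupled receptor of endothelium, known in the mouse lung for its part in surfactant balance.

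The 4 genes lie on separate chromosomes, and the positions in the table were identical to those of the GENCODE M21 annotation of GRCm38 in each case. Apold1 (ENSMUSG00000090698) spans bases 134981718 to 134986836 of the plus strand of chromosome 6 and has 1 annotated transcript, of 2 exons and 3567 bases. Its coding sequence has 738 bases. Akap12 (ENSMUSG00000038587) spans 4266380 to 4359470 of the plus strand of chromosome 10. Ctla2a (ENSMUSG00000044258) occupies 60934155 to 60936625 of the minus strand of chromosome 13 and overlaps 2 other genes, Gm49391 and Gm49393, which had 0 counts in every library. Adgrf5 (ENSMUSG00000056492) spans 43360451 to 43459557 of the plus strand of chromosome 17, with 21 exons in its longest listed transcript, and contains the small gene Gm25135, which had 11 counts in all.

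RefSeq start-site windows of GRCm38.p6, from 250 bases before to 50 after a start, were held for 3 of the 4 genes and searched on both strands for 14 short motifs. The stretches shown hold 3 of the matches in the Apold1 window, the whole upstream part of the first of 2 Ctla2a windows and the match in the first of 2 Adgrf5 windows. They are written 5′ to 3′ on the gene's strand. Capitals mark the TATA, AP-1, cyclic AMP and hypoxia matches and, in Adgrf5, the ETS match, each spelled out below, and all other matches are left in lower case.
Apold1, chr6:134981946-134981975, plus strand: agcCGTCAttggctcctgggagcTATAAAg
Apold1, chr6:134981825-134981854, plus strand: tcctaaatacgggACGTGctttgccagcgt
Ctla2a, chr13:60936626-60936875, minus strand: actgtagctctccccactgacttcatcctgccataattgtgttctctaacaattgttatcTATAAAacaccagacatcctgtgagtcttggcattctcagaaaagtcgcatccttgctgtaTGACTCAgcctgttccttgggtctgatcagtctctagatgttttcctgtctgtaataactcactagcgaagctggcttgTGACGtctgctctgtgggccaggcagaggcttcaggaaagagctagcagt
Adgrf5, chr17:43360359-43360388, plus strand: ggtgcctcccagtttCTTCCTgcactgagg

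The first Apold1 stretch holds TATAAA, 32 bases before the RefSeq start. It also holds TGACG on the opposite strand, the shorter form of the cyclic AMP response element TGACGTCA and part of it. TATAAA was found in 13.6% and TGACG in 20.8% of the 32851 windows of the table. The second holds ACGTG, the core of the hypoxia response element, which 19.6% of windows had. Ctla2a had TATAAA at 190 bases before its first start, TGANTCA, the AP-1 motif, at 129 bases and TGACG at 50 bases, and AP-1 matches occurred in 7.81% of windows. Counted from the second Ctla2a start, the same 3 matches lay at positions -249, -188 and -109. Adgrf5 had AGGAAG, an ETS motif, on the opposite strand in its first window, and 35.4% of windows had one. Further matches were AGGAAG at 2 places in the Apold1 window and just after the first Ctla2a start, at -54 from the second. AGATAA, read by GATA factors, lay upstream of the first Ctla2a start, sharing a base with TATAAA, and AGAACA, 1 arm of the glucocorticoid response element, lay upstream of the same start and in the second Adgrf5 window. The shares of all windows were 11.2% for AGATAA and 19.0% for AGAACA. No window of these genes matched the CArG box, CACCC (KLF), the full cyclic AMP element TGACGTCA, GTAAACA (FOX), AAAGGTCA (NBRE), the NF-kB motif or the full glucocorticoid response element, shares of all windows being 1.63%, 57.5%, 1.79%, 3.65%, 1.51%, 4.51% and 0.00913%. The RefSeq start of Apold1 differs from that of the counted gene. Its window begins at base 134981751, after the annotated gene start at 134981718. Both Apold1 stretches thus lie inside the annotated gene, and bases before the annotated start were not searched. The matches describe letters and not bound sites.

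The 6 libraries held 15814104 to 26092014 counts. Spinal cord markers were present in each, with summed levels of 5918 to 7564 CPM (read counts scaled to library size with trimmed-mean factors) for 10 neuronal genes and 34077 to 43223 CPM for 10 oligodendrocyte genes. Trained replicate 1 stood apart in lists of cells around the cord. Its 10 fibroblast markers summed to 161 CPM, against 682 and 719 CPM in trained replicates 2 and 3 and 650, 406 and 389 CPM in untrained replicates 1, 2 and 3. Its mean level of 8 Schwann cell markers, centred on all libraries, was -2.63 on the log2 scale, while the other libraries lay between 0.25 and 0.79. Values of the 4 genes and medians of the gene lists are therefore also given without it.

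Markers of other cells were measured beside the 4 genes. The 8 neutrophil markers summed to 54.3, 90.2 and 94.3 CPM in trained replicates 1, 2 and 3 and 56.7, 47.3 and 45.4 CPM in untrained replicates 1, 2 and 3. These sums overlapped between the groups through trained replicate 1. Csf3r, the most abundant and named after its value was seen, had 23.1 CPM in trained replicate 1 and 34.1 CPM in untrained replicate 1. Taken singly, 6 of the 8 were higher in every trained than in every untrained library, against 8.13% of all genes tested. Of the 8 markers, 0 passed the test described below, and their median log2 fold change was 1.46. At an unadjusted edgeR p below 0.05, 7 were higher in trained cord, against 4.47% of all genes. Leaving out trained replicate 1 gave a median of 1.73, and 3 passed as higher, S100a9, Ngp and Camp, named here after their values were seen. DESeq2 called 4. For 5 tested red cell genes the median was 0.93, and 0 passed. In the other lists 0 genes passed, and medians were -0.018 for 10 neuronal, 0.046 for 10 oligodendrocyte, -0.11 for 10 astrocyte, -0.16 for 10 microglial, -0.084 for 8 ependymal, -0.087 for 9 fibroblast and -0.43 for 8 Schwann cell markers. Without trained replicate 1 the medians were 1.37 for red cell, -0.077 for neuronal, -0.0048 for oligodendrocyte, -0.066 for astrocyte, -0.029 for microglial, -0.11 for ependymal, 0.43 for fibroblast and 0.014 for Schwann cell markers. The fibroblast median was also 0.43 without untrained replicate 1, and 0.92 without both replicates numbered 1, where 3 of 9 passed as higher. Of all genes, 37 of 16991 passed as higher without both replicates numbered 1. Without trained replicate 3 the microglial median was -0.36 and 4 of 10 passed as lower, against 148 of all 17181 genes in that fit. The part of these cells in the levels of the 4 genes was not tested.

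Apold1 was the gene with the widest gap. Trained replicates 1, 2 and 3 had 6.04, 6.05 and 7.63 CPM, against 70.5, 55.5 and 38.2 CPM in untrained replicates 1, 2 and 3. The trained libraries lay close together and the untrained ones spread 1.85-fold, yet the lowest untrained value was 5.01-fold above the highest trained one. Group means were 6.58 ± 0.916 CPM with training and 54.7 ± 16.2 CPM without (SD, n = 3 each), a log2 fold change of -3.07 ± 0.26 (SE, edgeR; trained over untrained). It had the fourth most negative fold change of all genes tested. Counts behind these levels were 98 to 156 reads in trained and 598 to 1291 reads in untrained libraries. In whole cord, fewer cells of a type and less RNA per cell cannot be told apart.

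Akap12, the kinase anchor, was the most even of the 4. Its level was 108, 113 and 107 CPM in trained replicates 1, 2 and 3 and 143, 149 and 141 CPM in untrained replicates 1, 2 and 3. The coefficient of variation was 2.79% in trained and 2.85% in untrained cord. Means of 109 ± 3.06 CPM with training and 144 ± 4.10 CPM without (SD, n = 3 each) gave a log2 fold change of -0.39 ± 0.07 (SE, edgeR). The level in trained replicate 1 was between those of the other trained libraries.

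Ctla2a, the protease inhibitor, had the fewest reads of the set. Trained replicates 1, 2 and 3 had 2.67, 3.71 and 5.40 CPM, and untrained replicates 1, 2 and 3 had 9.83, 8.17 and 6.20 CPM. The groups did not overlap, but trained replicate 3 and untrained replicate 3 were close, with exact 95% Poisson intervals of 4.32 to 6.66 CPM (87 counts) and 5.03 to 7.56 CPM (97 counts) that overlapped. These intervals cover counting error only. Group means were 3.93 ± 1.38 CPM with training and 8.07 ± 1.82 CPM without (SD, n = 3 each), a log2 fold change of -1.06 ± 0.26 (SE, edgeR).

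Adgrf5, the adhesion receptor, had 53.2, 61.5 and 52.3 CPM in the libraries of trained replicates 1, 2 and 3. In untrained replicates 1, 2 and 3 it had 85.4, 66.9 and 72.7 CPM. The nearest values of the groups, in trained replicate 2 and untrained replicate 2, were only 1.09-fold apart. Means of 55.7 ± 5.05 CPM with training and 75.0 ± 9.46 CPM without (SD, n = 3 each) gave a log2 fold change of -0.43 ± 0.10 (SE, edgeR).

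**Figure D1:**
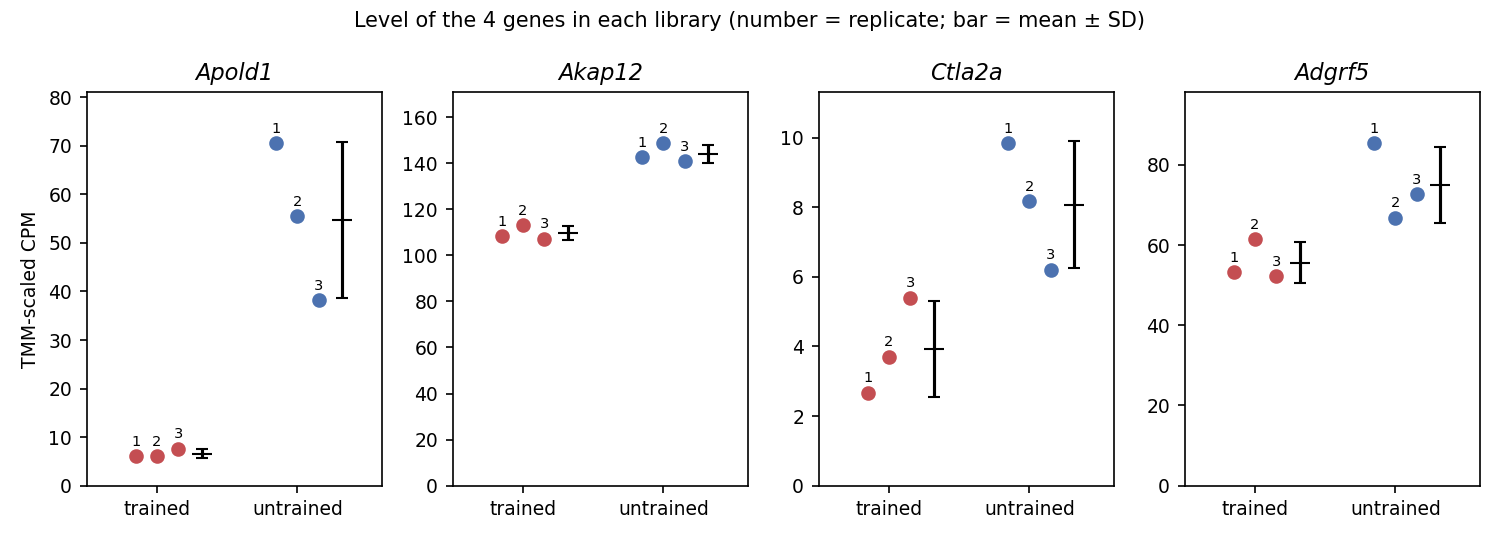
Level of Apold1, Akap12, Ctla2a and Adgrf5 in each library, as CPM scaled by trimmed-mean factors on linear axes from 0, with trained libraries in red and untrained ones in blue. Numbers are replicates and black bars are means ± SD (n = 3 each); Apold1 lay at 6.04 to 7.63 CPM in trained and 38.2 to 70.5 CPM in untrained libraries, and the groups were nearest in Ctla2a and Adgrf5.

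In all 4 genes every trained library lay below every untrained one, as the choice of the genes favours; the same held for 8.69% of all genes tested, and the opposite order for 8.13%. Untrained replicate 1 was the highest library in Apold1, Ctla2a and Adgrf5, and untrained replicate 2 in Akap12. Among the trained libraries replicate 3 was the highest in Apold1 and Ctla2a, and replicate 2 in Akap12 and Adgrf5. Apold1 and Ctla2a thus shared 1 order of all 6 libraries, from untrained replicate 1 down to trained replicate 1. That order is not resolved for Apold1 in trained replicates 1 and 2, which had 6.04 and 6.05 CPM. How many other genes had the same order was not counted. Without trained replicate 1 the log2 fold changes were -3.002 for Apold1, -0.39 for Akap12, -0.83 for Ctla2a and -0.40 for Adgrf5. Leaving out untrained replicate 1 as well gave -2.77 for Apold1, -0.39 for Akap12, -0.66 for Ctla2a and -0.30 for Adgrf5.

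Levels of different genes were compared per kilobase of the gene length in the table. In trained cord Akap12 was at 16.9 ± 0.473, Adgrf5 at 6.18 ± 0.560, Ctla2a at 1.86 ± 0.653 and Apold1 at 1.84 ± 0.257 CPM per kilobase (SD, n = 3). The last 2 did not differ beyond their spread. In untrained cord the order was Akap12 at 22.3 ± 0.634, Apold1 at 15.3 ± 4.53, Adgrf5 at 8.32 ± 1.05 and Ctla2a at 3.83 ± 0.863 CPM per kilobase. Of 28 endothelial marker genes, 26 stood above Apold1 in trained cord and 7 in untrained cord. For Akap12 these numbers were 5 and 4, for Adgrf5 16 and 12, and for Ctla2a 26 and 19.

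**Figure D2:**
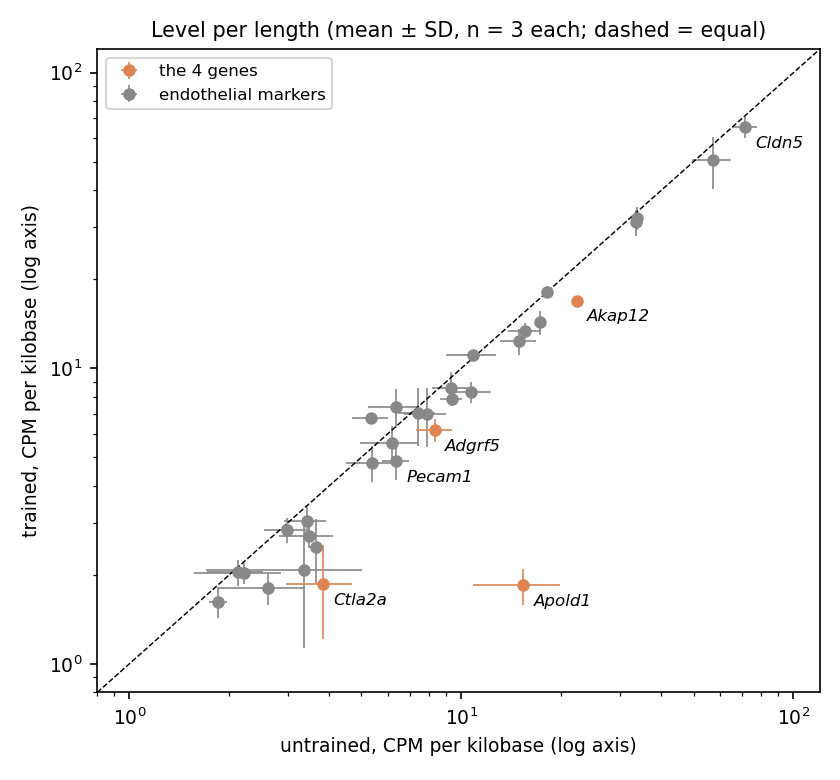
Level per gene length in trained (vertical) and untrained cord (horizontal), both in CPM per kilobase on log axes, for the 4 genes in orange and 28 endothelial markers in grey (mean ± SD, n = 3 each). The dashed line marks equal levels; the endothelial markers lie near it, from Cldn5 at 65.3 in trained and 71.3 in untrained cord downward, and Apold1 lies far below it at 1.84 in trained and 15.3 in untrained cord.

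The endothelial markers gave the level of the cell type beside the 4 genes. Of the 28 markers 0 passed the test over all genes in either direction (edgeR quasi-likelihood test, Benjamini-Hochberg adjusted p below 0.05), and of all genes 10 (0.0591%) passed, 9 (0.0532%) with a lower and 1 (0.00591%) with a higher level in trained cord. At an unadjusted edgeR p below 0.05, 9 of 28 markers were lower and 1 higher in trained cord, against 5.55% and 4.47% of all genes. Their log2 fold changes ran from -0.71 to 0.35 with a median of -0.17, 24 of 28 being negative, while all genes tested had a median of -0.0080 and 52.0% negative. Only Ctla2a and Apold1 among the 4 genes, which were chosen for a lower level in trained cord, lay outside that range.

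Pecam1, an adhesion molecule between endothelial cells, was at 30.2 ± 4.26 CPM with training and 39.5 ± 3.70 CPM without (log2 fold change -0.39 ± 0.11, edgeR adjusted p = 0.268). The junction gene Cgnl1 had a log2 fold change of -0.27 ± 0.08 (edgeR adjusted p = 0.292). Claudin-5 (Cldn5), of the tight junctions, averaged 92.5 ± 7.66 CPM with training and 101 ± 8.62 CPM without, and VE-cadherin (Cdh5) 29.3 ± 6.62 CPM with training and 33.0 ± 4.77 CPM without (SD, n = 3 each). Their edgeR adjusted p-values were 0.637 and 0.790. Plvap, a protein of fenestrated endothelium chosen after its value was seen, was the 1 marker with a higher level at an unadjusted p below 0.05, at 13.5 ± 0.544 CPM with training and 10.6 ± 1.32 CPM without (edgeR adjusted p = 0.426).

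Both replicates numbered 1 weighed on this list. Trained replicate 1 had the lowest of the 6 values in 17 of 28 markers and untrained replicate 1 the highest in 21. The median log2 fold change was -0.090 without trained replicate 1 and -0.067 without untrained replicate 1, and 0.0049 without either of them, with 14 of 28 markers negative. The summed level of the 28 markers was 1100, 1283 and 1198 CPM in trained replicates 1, 2 and 3 and 1511, 1306 and 1286 CPM in untrained replicates 1, 2 and 3. Set against that sum, Apold1 had 5.53 ± 0.828 CPM with training and 39.6 ± 8.83 CPM without for each 1000 CPM of endothelial markers (SD, n = 3 each). Per 1000 CPM of markers, Akap12 had 92.0 ± 5.67 with training and 106 ± 10.2 without, Ctla2a 3.27 ± 1.09 with training and 5.86 ± 0.911 without, and Adgrf5 46.6 ± 2.62 with training and 54.7 ± 3.07 without. The part of endothelial RNA content in the levels of the 4 genes was not tested.

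**Figure D3:**
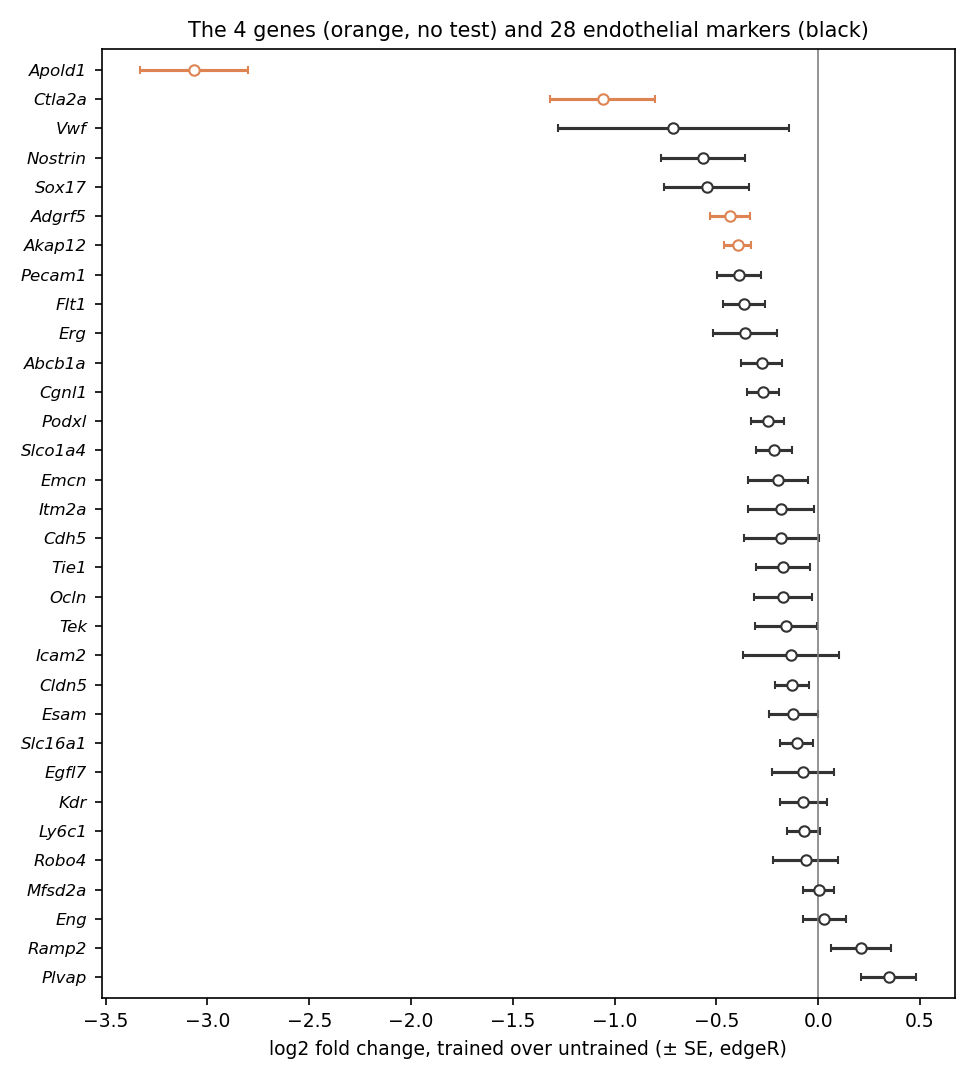
Log2 fold change (trained over untrained, ± SE from edgeR, all 6 libraries) of the 4 genes in orange, which carry no test, and of 28 endothelial markers in black, ordered from lowest at the top. Open black points did not pass at an adjusted p of 0.05; the markers lie between -0.71 and 0.35, and Apold1 at -3.07.

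Mural cell genes gave 0 of 13 past the test and a median log2 fold change of -0.22, 10 of 13 negative. The receptor gene Notch3 was at -0.28 ± 0.11 and Rgs5, a pericyte marker, at -0.18 ± 0.12 (edgeR adjusted p = 0.404 and 0.666). Pdgfrb, the pericyte receptor for platelet-derived growth factor, and Acta2, smooth muscle actin, were at -0.21 ± 0.20 and -0.37 ± 0.44 (edgeR adjusted p = 0.783 and 0.829). The median was -0.041 without trained replicate 1, -0.068 without untrained replicate 1 and 0.097 without either. Summed mural levels overlapped between the groups, at 369 to 542 CPM in trained and 455 to 626 CPM in untrained cord.

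**Figure D4:**
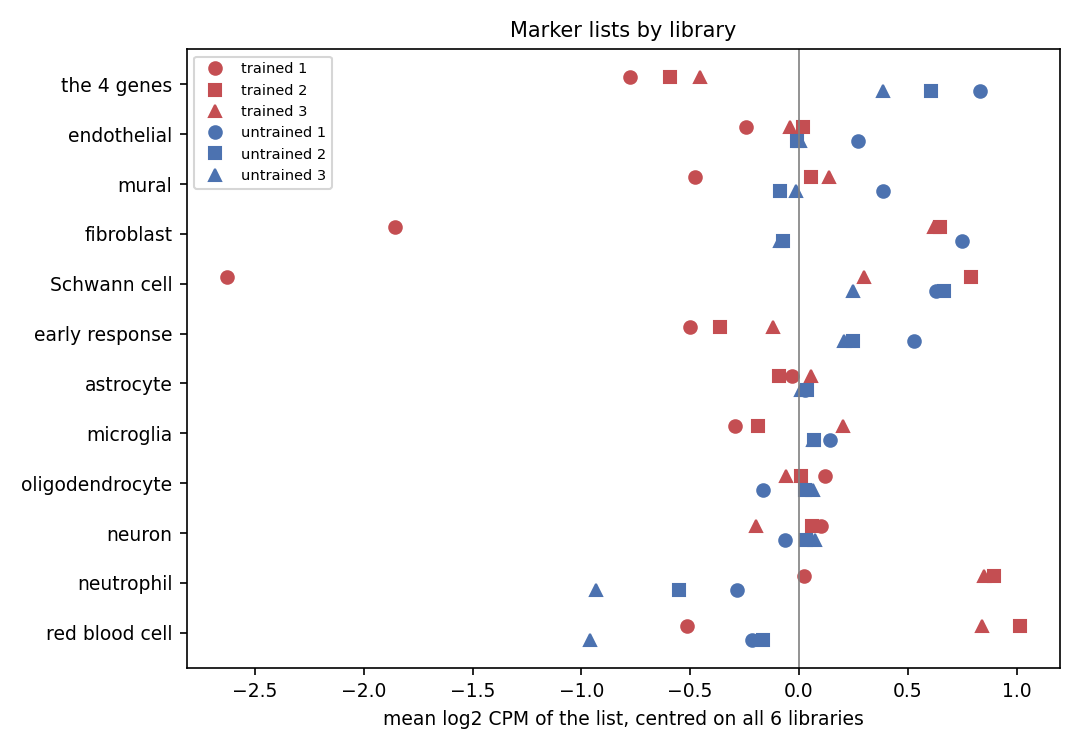
Mean log2 CPM of 12 gene sets in each library, centred on all 6 libraries, with trained libraries in red and untrained ones in blue. The 4 genes, chosen for their separation, lie below -0.45 in trained and above 0.38 in untrained libraries, the endothelial and mural lists overlap, and trained replicate 1 lies at -2.63 for Schwann cell and -1.86 for fibroblast markers.

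Early-response genes, the class to which Apold1 belongs, had a lower level in trained cord in 27 of 30 genes, and their median was -0.55 on the log2 scale. In the test over all genes 3 of 30 fell and 0 rose, against 0.0532% and 0.00591% of all genes. The 3 were Dusp1, a phosphatase of MAP kinases, at -1.43 ± 0.11, the antiproliferative gene Btg2 at -1.38 ± 0.11 and the transcription factor gene Klf4 at -1.44 ± 0.17 (edgeR adjusted p = 0.000149, 0.000149 and 0.00968). Earlier results on these libraries had shown this pattern before the list was drawn up, so it is no independent evidence. Without trained replicate 2 Klf4 was no longer called and 2 genes fell. The number was 9 without trained replicate 3, and 5 without untrained replicate 1, without untrained replicate 3 or without both replicates numbered 1. Calls over all genes changed too. Without trained replicate 3, 148 of 17181 genes passed as lower, against 9 of 16909 with all libraries. The same count was 11 without untrained replicate 1, 13 without untrained replicate 3 and 14 without both replicates numbered 1. Without trained replicate 1, 3 early-response genes fell, and the median of the list was -0.45. At an unadjusted edgeR p below 0.05, 21 of 30 were lower and 1 higher in trained cord, against 5.55% and 4.47% of all genes.

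Klf2, which endothelial cells transcribe under blood flow, had the log2 fold change nearest that of Apold1 in the list, -1.70 ± 0.36 (edgeR adjusted p = 0.321; chosen after its value was seen). Trained replicates 1, 2 and 3 had 13.8, 22.4 and 24.1 CPM, against 75.5, 42.3 and 76.3 CPM in untrained replicates 1, 2 and 3. The groups did not overlap, and the untrained libraries differed widely among themselves. DESeq2 called Klf2 (adjusted p = 0.00185), and over all alternatives its adjusted p ran from there to 0.703. The fold change of Apold1, chosen for its lower level in trained cord, was the most negative of the 31 genes drawn together.

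**Figure D5:**
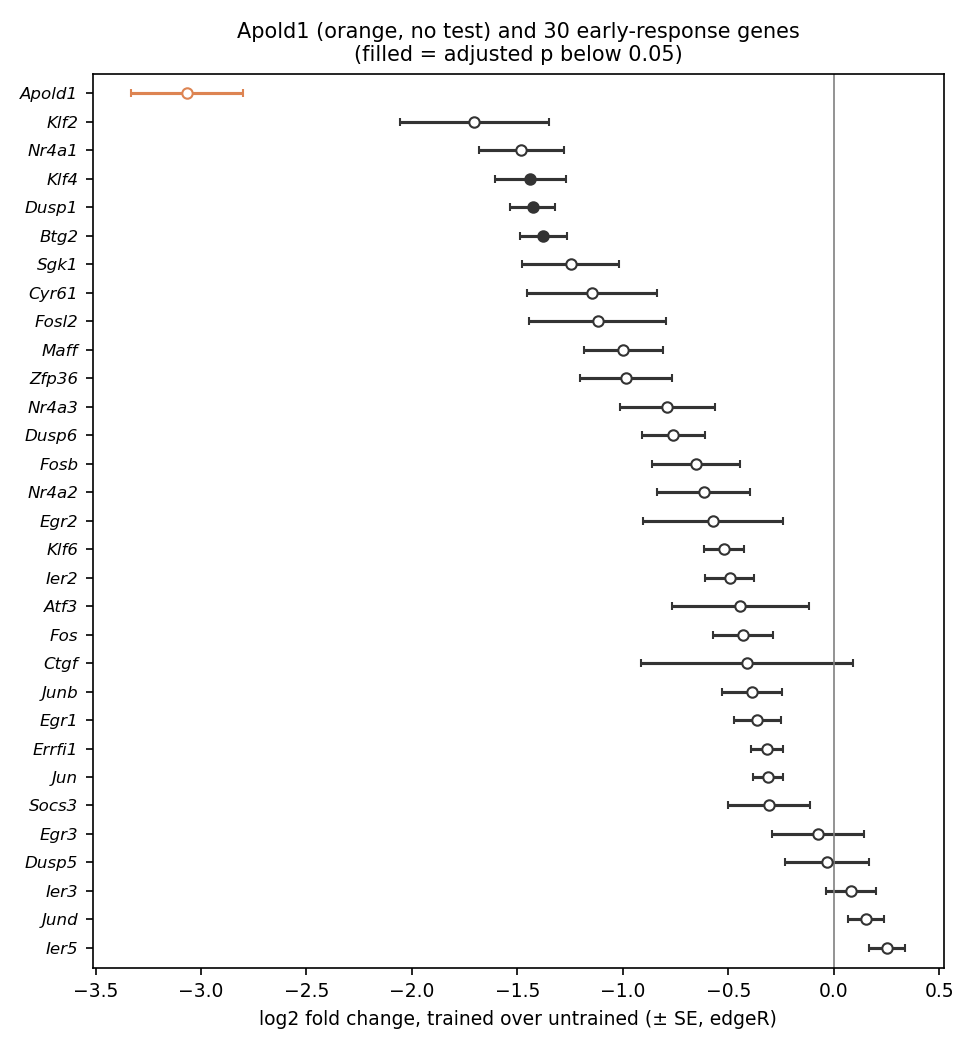
Log2 fold change (trained over untrained, ± SE from edgeR, all 6 libraries) of Apold1 in orange, which carries no test, and of 30 early-response genes in black, ordered from lowest at the top. Filled points, Klf4, Dusp1 and Btg2, passed at an adjusted p of 0.05; 27 of the 30 lie below 0.

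Genes that endothelial cells regulate with blood flow or inflammation gave 1 of 18 past the test, Klf4, which also belongs to the early-response list and was not called without trained replicate 2. The median of the list was -0.27 on the log2 scale and 16 of 18 genes were negative, while Timp3, an inhibitor of metalloproteinases, was at 70.5 ± 6.58 CPM with training and 93.7 ± 12.1 CPM without (edgeR adjusted p = 0.218). In this list DESeq2 called Klf2, Klf4 and Timp3. The median of the list was -0.16 without trained replicate 1 and 0.021 without either replicate 1. Vascular growth factors and receptors gave 0 of 21 past the test and a median of -0.16, which was -0.089 without trained replicate 1, -0.040 without untrained replicate 1 and 0.028 without either. Among them Nrp2, a co-receptor for semaphorins and VEGF-C, was at 52.4 ± 2.81 CPM with training and 65.4 ± 3.23 CPM without (edgeR adjusted p = 0.209). Flt1, the decoy-like receptor for VEGF-A, was at -0.36 ± 0.10 (edgeR adjusted p = 0.294). Hypoxia-response genes gave 0 of 17 past the test and a median of -0.073, against -0.045 without trained replicate 1. The glucose transporter gene Slc2a1 was at 180 ± 6.75 CPM with training and 241 ± 32.6 CPM without, and Hif1a, the oxygen-regulated transcription factor, at a log2 fold change of -0.25 ± 0.07 (edgeR adjusted p = 0.191 and 0.244). DESeq2 called Slc2a1 (adjusted p = 0.00727). Over all alternatives its adjusted p ran from 0.000261 with no filter on low counts to 0.555 with a replicate block. Slc2a1 overlaps other genes, and its reads may be shared with them.

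The relatives of each gene were looked at in turn. Of 13 genes of the apolipoprotein L family, to which Apold1 is related by its domain, 4 were tested and 0 passed. Apol8, the most abundant, averaged 11.02 CPM with training and 10.98 CPM without (log2 fold change 0.013 ± 0.18, edgeR adjusted p = 0.989). Apol6, Apol9a and Apol9b were at -0.81 ± 0.44, -0.16 ± 0.50 and -0.51 ± 0.57 (edgeR adjusted p = 0.554, 0.948 and 0.809), and Apol9a and Apol9b are close copies whose reads may be split between them. The other 9 had 0 to 41 counts in all 6 libraries together.

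Among the kinase anchors other than Akap12, 10 of 14 were tested, 0 passed and the median log2 fold change was -0.12, in a range from -0.21 to 0.24. Without trained replicate 1 the median was also -0.12. Akap8 was at -0.20 ± 0.09 and Akap6 at -0.20 ± 0.09 (edgeR adjusted p = 0.471 and 0.502). Akap12 lay below this range, as its choice for a lower level in trained cord favours. The kinases and receptors that anchors bring together gave 0 of 12 past the test and a median of -0.0089, against -0.041 without trained replicate 1 and 0.068 without trained replicate 3. The beta-1 adrenergic receptor gene Adrb1 was at 0.38 ± 0.17 and the phosphodiesterase gene Pde4d at -0.21 ± 0.10 (edgeR adjusted p = 0.476 and 0.493).

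Ctla2b, the neighbouring copy of Ctla2a, had 2, 0 and 3 counts in trained and 11, 9 and 0 counts in untrained replicates 1, 2 and 3, too few to be tested. The transcripts Ctla2a-201 and Ctla2b-201 of the copies were identical at 93.3% of 705 aligned bases. No 150-base window of a Ctla2a transcript, the length of 1 read, occurred without a mismatch in Ctla2b, while 7.37% occurred in Gm49391, the overlapping gene with 0 counts. How the authors' counting treated reads in such overlaps is not given, and the level of Ctla2a is uncertain to that extent. Of the cathepsins, the class of proteases to whose propeptides Ctla2a is related, 0 of 10 passed, the median being -0.17 on the log2 scale. It was -0.084 without trained replicate 1 and -0.085 without trained replicate 2. Without trained replicate 3 it was -0.35, and 4 passed as lower, Ctsl, Ctss, Ctsh and Ctsz, named after their values were seen. In that fit 148 of all 17181 genes passed as lower. With all libraries, Ctsc was at -0.47 ± 0.21 and Ctsk at 0.30 ± 0.15 (edgeR adjusted p = 0.518 for both), and Ctsl, cathepsin L itself, was at -0.18 ± 0.11 (edgeR adjusted p = 0.622; named for its link to Ctla2a after its value was seen).

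The other receptors of the Adgrf group were nearly silent. Adgrf1, which lies upstream of Adgrf5 on chromosome 17, had 1 count in the 6 libraries, and Adgrf2, Adgrf3 and Adgrf4 had 40, 8 and 54 counts. Of 28 adhesion receptors other than Adgrf5, with Adgrf1 to Adgrf4 among them, 21 were tested and 0 passed. Their median log2 fold change was -0.050, against -0.069 without trained replicate 1. Adgre1, the macrophage antigen F4/80, was at 14.1 ± 3.31 CPM with training and 23.0 ± 3.17 CPM without (log2 fold change -0.71 ± 0.16, edgeR adjusted p = 0.212). Adgre1 was called by DESeq2 (adjusted p = 0.0130) and by edgeR without trained replicate 3 (adjusted p = 0.00736), and over all alternatives its adjusted p ran from 1.28e-05 to 0.532. Adgrb1, a receptor of neurons and glia, was at 0.19 ± 0.08 (edgeR adjusted p = 0.426). Adgrl4, an endothelial receptor named after its value was seen, was at -0.30 ± 0.12 (edgeR adjusted p = 0.430).

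The nearest tested genes on either side of Apold1 did not share its level. Cdkn1b, a cell-cycle inhibitor 56205 bases before it, was at 59.1 ± 7.96 CPM with training and 60.1 ± 4.13 CPM without. Ddx47, an RNA helicase 24776 bases after it, was at 43.6 ± 2.73 CPM with training and 41.8 ± 1.28 CPM without (SD, n = 3 each). Their edgeR adjusted p-values were 0.951 and 0.828. The tested neighbours of the other genes, Mthfd1l and Zbtb2 beside Akap12, Dapk1 and Gm7240 beside Ctla2a and Tnfrsf21 and Pla2g7 beside Adgrf5, had log2 fold changes from -0.41 to -0.037, none past the test, with groups that overlapped.

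Likeness to each gene was measured as the root mean square difference of log2 CPM, with a prior count of 2 and centred on the 6 libraries, over 15657 other genes with a mean of at least 1 CPM. The nearest gene to Akap12 was Ccar1, a regulator of the cell cycle and apoptosis, at 0.031 log2 units, followed by Tmem123 at 0.040 and Nrip1, a nuclear receptor corepressor, at 0.044. Ccar1 had 35.7, 39.7 and 36.6 CPM in trained and 47.8, 51.2 and 46.7 CPM in untrained replicates 1, 2 and 3. Adgrf5 had Ccdc60 at 0.044, Flt1 at 0.048 and Lrch3 at 0.063, and Flt1 is an endothelial receptor from the list above. Ctla2a had Tcim at 0.17, Pla1a at 0.18 and Ms4a4a at 0.19.

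By this measure, which grows with the size of a gene's differences between libraries, Apold1 had no gene as near. The closest were the pseudogene Rpl30-ps10 at 0.65 log2 units, the pseudogene Gm10705 at 0.78 and Nr4a1, an early-response nuclear receptor gene, at 0.78. Reads of the pseudogenes may come from their parent genes. Nr4a1 had 13.98, 16.5 and 18.4 CPM in trained and 56.5, 45.2 and 33.8 CPM in untrained replicates 1, 2 and 3, and its untrained libraries had the order of those of Apold1. Within the set, Akap12 and Adgrf5 differed by 0.13 log2 units, and Ctla2a from either by 0.46 to 0.48. Apold1 differed from the other 3 by 0.996 to 1.33. Apold1 was chosen for its lower level in trained cord, so its larger distances restate in part the size of that gap. These distances are no separate evidence that Apold1 had a distinct pattern.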

How the data were processed

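Values start from whole-number read counts that the authors deposited for each Ensembl gene, beside its length and position. Per the labels' protocols, TRIzol extracts of total RNA were sequenced in pairs of 150 bp reads. Bowtie 0.12.2, mm8 and mm9 appear in the submitters' processing notes without a stated role. Which program counted reads, on which annotation and with what strand setting, is not given in the sources used here. Groups follow the labels, 3 trained and 3 untrained libraries.

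The test was the robust quasi-likelihood test of edgeR 4.0.16 (R 4.3.3) after filterByExpr and TMM scaling, with group as the only term, Benjamini-Hochberg adjustment over 16909 genes and a threshold of 0.05. An SE is the log2 fold change divided by the root of the F statistic. A library's 3 counts equal 0.115 to 0.190 CPM. Alternatives were RLE, upper-quartile and total-count scaling, DESeq2 1.42.0, limma-voom (limma 3.58.1), other filters, a replicate block and leaving out libraries; leaving out both replicates 1 together, and the counts of lists by library left out, were added after seeing the data. The edgeR step was tested on simulated counts. The members and the 20 gene lists were chosen with earlier results of these data known. Named genes are the 4 members, their nearest relatives, the 2 genes of smallest p in each vascular, pathway and family list, 6 defining markers and the 3 genes most like each member, and others are marked as chosen after their values were seen. Motifs were chosen by name, and promoter sequences are RefSeq's (GRCm38.p6).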

Additional observations from a re-analysis of the deposited data

How the results depend on the processing

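The log2 fold changes of Apold1, Akap12, Ctla2a and Adgrf5 kept their sign and moved by less than the spread between replicates under every alternative run. With 1 library left out they ranged from -3.27 to -2.83 for Apold1, -0.42 to -0.36 for Akap12, -1.34 to -0.83 for Ctla2a and -0.51 to -0.32 for Adgrf5. The number of genes passing, 10, was 90 with DESeq2, 276 with no filter on low counts, 5 with a replicate block, 51 without both replicates 1, and 4 to 221 with 1 library left out, the lowest without trained replicate 2 and the highest without trained replicate 3; without trained replicate 1 it was 21. The endothelial list had no gene past the test in these fits except with no filter, where Pecam1 and Flt1 passed, and DESeq2 called 11 early-response genes, against 3. Without both replicates 1 the endothelial median log2 fold change turned from -0.17 to 0.0049 and the mural one from -0.22 to 0.097, while the early-response one was -0.38 against -0.55; the cause was not tested. With 1 library left out, the medians ranged from -0.25 to -0.067 for endothelial, -0.35 to -0.041 for mural and -0.74 to -0.45 for early-response genes. Deviations of same-numbered libraries had correlations of -0.25, -0.075 and -0.19 over 15782 genes. With only 3 libraries in each group, these values cannot decide whether the replicate numbers pair samples. With the replicate block the endothelial median was -0.17, and Klf4 was not called (edgeR adjusted p = 0.135). That left 2 early-response genes and none of the blood-flow list. Depth limits Ctla2a most, at 60 to 180 counts per library.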
